A study of Mus musculus with 60 samples.

Results

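Tdt+ and Tdt- microglia sorted from the injured cortex 7 days after a neonatal stroke were compared, 3 libraries of each. The 6 libraries are those of the day 7 table whose columns carry the injured side, the label state and replicate numbers 1, 2 and 3, out of 60 samples in the series and 52 bulk RNA libraries with a column. All mice were Spp1-CreER:R26-Tdtomato, all had stroke as their disease state, and all were at postnatal day 13. In this genotype a drug-inducible Cre recombinase under control of Spp1 turns on the red reporter Tdtomato from the Rosa26 locus, so a Tdt+ cell is one in which Spp1 was expressed while Cre was active, and a Tdt- cell is an unlabelled neighbour from the same tissue. When the inducing drug was given is not stated in the labels, and neither is whether a replicate is 1 animal or a pool. Each bulk library came from 2000 sorted microglia and was built with a modified SMART-Seq2 protocol, a full-length method for few cells. Microglia of the contralateral cortex at the same age, in mice of the same genotype, are quoted as a reference level only (3 libraries, read from Tdt- columns).

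Microglia are the resident macrophages of the brain. In the healthy adult cortex they hold a homeostatic programme that includes the purine receptor P2ry12 and the surface protein Tmem119. In disease, and in some regions of the early postnatal brain, microglia can take on a programme in which Apoe, Spp1 and genes of lipid handling and phagocytosis are high, known as the disease-associated programme. Spp1 encodes osteopontin, a secreted phosphoprotein that binds integrins and CD44 and acts in adhesion, migration and wound repair.

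The values are TPM, an abundance corrected for transcript length and scaled to the same total in each library, so read depth is unknown and no counting interval is given. Each library had 11751 to 12018 genes at 1 TPM or more. Genes that reached 1 TPM in at least 3 of the 6 libraries, 11874 in all, were tested with limma on log2(TPM + 1) with the replicate number as a block, with Benjamini-Hochberg adjustment of p over all of them. A difference given as log2 is Tdt+ minus Tdt- on that scale with its standard error, and it understates the change of low genes. In bulk RNA, fewer cells of a type and less RNA per cell cannot be told apart.

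The libraries with the same number shared more than a name. Xist, the RNA that coats the inactive X chromosome in females, was at 12.5 TPM in Tdt+ replicate 2, 10.1 in Tdt- replicate 2 and 7.98 in contralateral replicate 2, and at most 0.11 in every other library of the 3 groups. Ddx3y, a gene of the Y chromosome, was at 81.8 to 113 TPM in the Tdt+ and Tdt- libraries numbered 1 and 3 and at 0.29 and 0 in those numbered 2. The number 2 libraries thus held female transcripts and the others male ones, in the same order on both sides of the comparison. These genes were chosen after their values were seen. Replicate 1 also had the highest level within all 3 groups for 6 of 10 microglia markers. Among them was Fcrls, an Fc receptor-like gene of microglia, at 3676, 2490 and 2172 TPM in Tdt+ replicates 1 to 3 and 3632, 2523 and 2240 in the Tdt- ones. Across genes at large, 20.2% had the 3 replicates in the same order in Tdt+ and Tdt- libraries, so most genes did not keep an order. With 6 possible orders of 3 replicates some genes agree by chance, and this share was not tested against chance.

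All 6 libraries had high microglia markers. Tmem119 was at 1449 to 2105 TPM in Tdt+ and 2222 to 2456 in Tdt- libraries, and Csf1r, the receptor on which microglia depend for survival, was at 3402 to 4147 and 3873 to 5007 TPM. B cell markers summed to 237 to 474 TPM in Tdt+ and 299 to 672 TPM in Tdt- libraries, all of it from Ighm and Cd79b. Ighm, the immunoglobulin mu chain, averaged 260 TPM in Tdt+ and 341 TPM in Tdt- libraries and Cd79b, part of the B cell receptor, 83.1 and 110 TPM, both with an unadjusted p under 0.05. These were the 2 B cell markers tested, both with a negative difference (100%, against 3.83% of all genes). Contralateral libraries averaged 361 TPM of Ighm and 95.2 TPM of Cd79b. The glutamate transporter Slc1a3, an astrocyte marker, averaged 55.1 and 76.9 TPM, also with an unadjusted p under 0.05, and 70.9 TPM in contralateral libraries. It was 1 of 2 astrocyte markers tested (50%, against 3.83% of all genes with a negative difference). Whether B cells or astrocytes have a part in the differences was not tested. Markers of T and NK cells were at 0 apart from a sum of 5.72 TPM in Tdt- replicate 2, and erythroid markers were at 0 in every library. Neuron markers summed to at most 3.16 TPM.

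Tdt- replicate 3 stood apart in neutrophil transcripts. Of 24 neutrophil markers in the table, 17 were above 0 in it and 2 to 5 in each of the other 5 libraries. The calcium-binding alarmins S100a8 and S100a9 were at 51.2 and 75.9 TPM there and at 0 in the other 5. The granule genes Ngp, Ltf, Lcn2 and Mmp8 were at 24.1, 20.7, 15.0 and 7.05 TPM there, also against 0 in the other 5. In all, 11 markers were above 0 in that library alone among the 6. The summed marker level was 377 TPM in it, 112 and 160 TPM in the other Tdt- libraries and 138, 168 and 149 TPM in Tdt+ replicates 1, 2 and 3. Most of the sum outside that library was Csf3r, the G-CSF receptor, at 99.9 to 158 TPM in the 6 libraries and 103 to 126 in contralateral ones. The neutrophil sum was 0.0377% of all TPM in Tdt- replicate 3. Several list counts and medians below are also given without this library or without pair 3, which holds it.

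**Figure D1:**
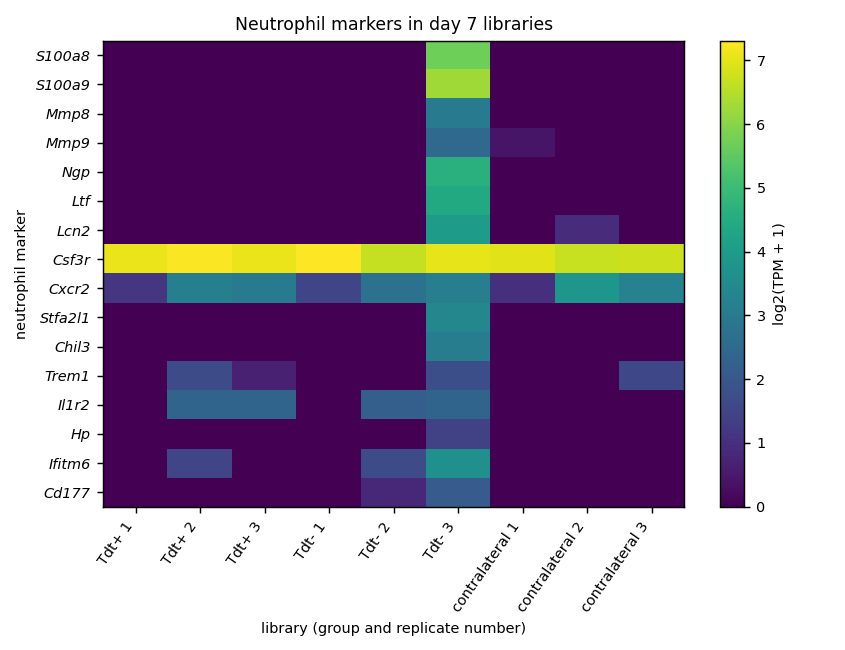
Level of each neutrophil marker that reached 1 TPM in a Tdt+ or Tdt- library, as log2(TPM + 1) by colour, in the 3 Tdt+, 3 Tdt- and 3 contralateral libraries of day 7. S100a8, S100a9, Ngp, Ltf, Lcn2 and Mmp8 are lit in Tdt- replicate 3 and at 0 in the other 5 Tdt+ and Tdt- libraries, whereas Csf3r is at a like level in every library.

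Spp1 is the gene whose past expression the reporter marks, while the values here are its RNA level at collection. The 2 are not the same measure. In a separate time course, described below, Spp1 was at 0 to 2.05 TPM in the 5 day 7 Tdt+ libraries, and the cause was not tested. The gene lies on chromosome 5 at 104435111 to 104441053 of GRCm38. Its level was 534, 843 and 922 TPM in Tdt+ replicates 1 to 3 and 17.8, 219 and 162 TPM in the Tdt- replicates in the same order. Contralateral libraries held 41.5, 2.98 and 61.5 TPM. Every Tdt+ library was above every Tdt- library, and Spp1 RNA was present in all 3 Tdt- libraries too, in 2 of them above every contralateral library. The difference was log2 3.09 ± 0.47, higher in 3 of 3 pairs, and it did not pass (limma adjusted p = 0.196, and 0.662 without the block). Leaving out a pair or a library moved it between 1.98 and 3.75. Among the 7669 genes that averaged 10 TPM or more in one of the groups and were not listed at 0 in a whole group, Spp1 had the largest log2 difference in favour of Tdt+.

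Across all genes, 3 of 11874 passed at an adjusted p of 0.05 (0.0253%), all of them higher in Tdt+ libraries, and 817 had an unadjusted p under 0.05 (6.88%), 362 with a positive difference (3.05%) and 455 with a negative one (3.83%). The groups did not overlap for 488 genes with all Tdt+ libraries above (4.11%) and 872 with all below (7.34%). Without pair 1 no gene passed and 340 and 417 had an unadjusted p under 0.05 with a positive and a negative difference, and without pair 2 the 3 that passed were Gm27624, Gm25745 and mt-Nd3, so Ccl12 and Gm37401 were lost. Without pair 3, which holds the library with neutrophil transcripts, 1 gene passed, the predicted gene Gm23632. It was lower in Tdt+ libraries, was not tested in the 6 libraries together, and also passed with Tdt- replicate 3 alone left out. The median difference over all genes was -0.06, and 43.0% of genes had a positive difference, 48.2% under quantile normalization and 50.2% under scaling by median ratios. Among genes with an unadjusted p under 0.05, 44.3% had a positive difference, 54.3% under quantile normalization, 58.9% under scaling by median ratios and 55.7% without pair 3 (443 positive and 352 negative), so that balance turns with the scaling and with pair 3. Of the 7677 genes that averaged 10 TPM or more in one of the groups, 177 differed by at least log2 1 towards Tdt+ and 134 by as much towards Tdt-.

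Ccl12 was the one named gene that passed. It encodes a chemokine of the monocyte-attracting group that acts through Ccr2. Its level was 2963, 2449 and 2269 TPM in Tdt+ replicates 1 to 3 and 1509, 1206 and 1347 TPM in the Tdt- ones, against 595, 384 and 729 TPM in contralateral libraries. The lowest Tdt+ library was well above the highest Tdt- library, and each Tdt- library was above each contralateral one. It rose by log2 0.92 ± 0.09, higher in 3 of 3 pairs (limma adjusted p = 0.0487, and 0.149 without the block). The call was a close one: it was kept in 3 of 21 alternative fits, and the adjusted p ranged from 0.0237 to 0.791 over them, while the difference stayed between 0.81 and 1.00. Without pair 3, which holds the library with neutrophil transcripts, it was 1.00 ± 0.09 and did not pass (limma adjusted p = 0.306).

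The other 2 genes that passed were the predicted genes Gm27624 (ENSMUSG00000099081.1) and Gm37401 (ENSMUSG00000104208.1), neither of which has an entry in the RefSeq table. Gm27624 was at 210, 95.2 and 311 TPM in Tdt+ libraries and listed at 0 in all Tdt- libraries, so no fold is given. In contralateral libraries it was at 493 TPM in replicate 1 and at 0 in replicates 2 and 3. Gm37401 was at 106, 26.7 and 90.2 TPM in Tdt+ libraries and at 0 in all Tdt- libraries, but at 25.1, 58.8 and 92.6 TPM in contralateral ones. Both were therefore seen in the unlabelled cells of the contralateral side and listed at 0 in the unlabelled cells of the injured side. The limma adjusted p was 0.00248 for Gm27624 and 0.0263 for Gm37401. Both met the filter of 1 TPM in at least 3 libraries through the Tdt+ group alone, and a group at 0 throughout has no spread. These p-values are thus no independent support for a difference. In each of the 6 libraries, 47 to 65 genes were at 5 TPM or more there and at 0 in the other 5.

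The promoters of Spp1 and Ccl12 are shown because they belong to the gene that drives the label and to the named gene that passed. Each runs from 250 bases before to 50 bases after the annotated start, from RefSeq on GRCm38.p6, on the plus strand, with Spp1 at chr5:104434861-104435160 and Ccl12 at chr11:82101595-82101894. Capitals mark the TATA letters TATAAA and the core GAGGAA of sites bound by PU.1, an ETS factor of macrophages.
Spp1: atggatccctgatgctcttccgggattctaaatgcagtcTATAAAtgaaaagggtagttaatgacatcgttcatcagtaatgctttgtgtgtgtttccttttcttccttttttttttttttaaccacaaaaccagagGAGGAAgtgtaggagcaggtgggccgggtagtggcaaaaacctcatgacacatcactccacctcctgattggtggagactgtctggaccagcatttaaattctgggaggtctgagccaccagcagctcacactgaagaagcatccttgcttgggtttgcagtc
Ccl12: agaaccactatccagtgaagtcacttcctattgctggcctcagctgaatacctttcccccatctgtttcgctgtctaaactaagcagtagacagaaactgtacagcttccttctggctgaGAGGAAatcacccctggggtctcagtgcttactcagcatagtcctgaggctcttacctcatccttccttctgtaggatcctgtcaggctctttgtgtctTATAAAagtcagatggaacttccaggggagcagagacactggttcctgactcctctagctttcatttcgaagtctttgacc
In both windows each of these motifs occurs once, searched on both strands. TATAAA begins at -31 in Ccl12 and at -211 in Spp1, counted from the start site, and GAGGAA at -130 and -113. Of 27025 promoters of this length, 14.16% hold TATAAA and 28.31% hold GAGGAA on either strand. The AP-1 letters TGANTCA are not in these windows, and 7.93% of all promoters hold them.

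Ccl12 lies in a cluster of chemokine genes on chromosome 11 with Ccl2 and Ccl7, whose products also attract monocytes. Ccl2 was at 255, 129 and 181 TPM in Tdt+ replicates 1 to 3 and 74.8, 62.5 and 75.3 TPM in Tdt- ones, a difference of log2 1.35 ± 0.18 that did not pass (limma adjusted p = 0.186). Its groups did not overlap, but contralateral replicate 3, at 109 TPM, lay above every Tdt- library. Ccl7, given after its values were seen, was lower in level, at 27.9, 2.88 and 13.2 TPM in Tdt+ and 5.06, 0 and 2.93 TPM in Tdt- libraries. The groups overlapped there, although each Tdt+ library was above the Tdt- library of its number. Other CC chemokines did not share this pattern of levels. Ccl3 and Ccl4, the macrophage inflammatory proteins, were at 62.3, 70.5 and 102 and at 18.4, 21.0 and 17.6 TPM in Tdt+ libraries. In Tdt- libraries they were at 54.0, 115 and 82.8 and at 6.79, 46.4 and 59.0 TPM, so both overlapped between the groups. Ccl9 was at 11.4, 16.4 and 24.3 TPM in Tdt+ and 43.8, 31.6 and 23.9 TPM in Tdt- libraries. Of 10 CC chemokine genes tested, 1 passed, and 3 had an unadjusted p under 0.05 with a positive and 1 with a negative difference, where the shares over all genes were 0.0253%, 3.05% and 3.83%.

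The Ms4a genes, which encode membrane proteins with several spans and sit side by side on chromosome 19, were next. Ms4a6d was at 238, 421 and 357 TPM in Tdt+ replicates 1 to 3 and 102, 221 and 188 TPM in Tdt- ones, and contralateral libraries held 87.0 to 117 TPM. The difference was log2 1.02 ± 0.13 with no overlap between the groups (limma adjusted p = 0.186). Ms4a4a was at 91.9, 172 and 151 TPM against 17.5, 76.3 and 48.2 TPM, log2 1.71 ± 0.24 (limma adjusted p = 0.186). In both genes replicate 1 was the lowest library of its group and replicate 2 the highest, so the replicates were ordered alike on both sides. Ms4a6c followed the same order, at 126, 286 and 272 TPM in Tdt+ and 58.8, 173 and 127 TPM in Tdt- libraries (log2 0.97 ± 0.15). There the groups overlapped, since Tdt+ replicate 1 lay below Tdt- replicate 2. All 6 Ms4a genes tested had a positive difference, 5 of them with an unadjusted p under 0.05 and none past the adjusted threshold, where 43.0% of all genes were positive and 3.05% were so with an unadjusted p under 0.05. Members of this family are close in sequence, and how reads shared between copies were divided is not known here.

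**Figure D2:**
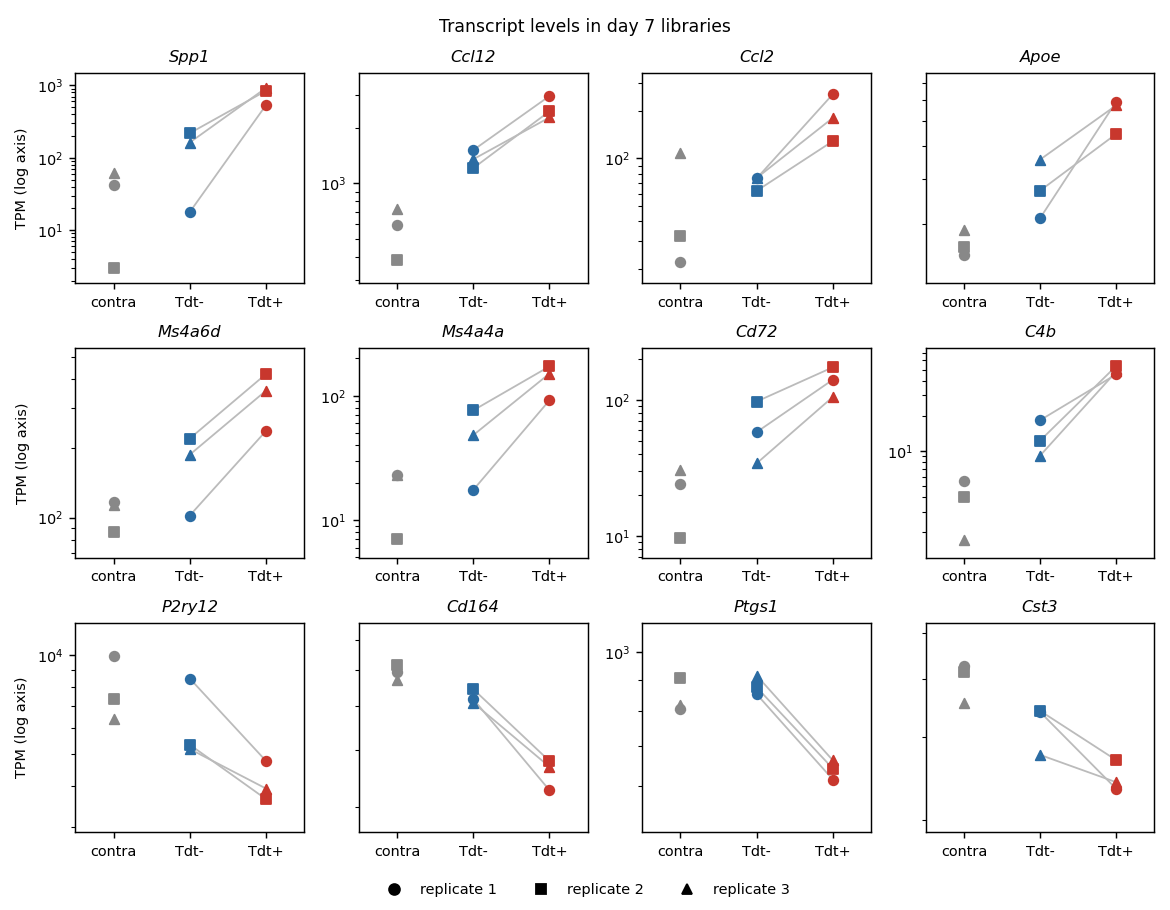
TPM on a log axis of 12 genes in the contralateral (grey), Tdt- (blue) and Tdt+ (red) libraries of day 7, n = 3 each, with marker shapes for replicate numbers 1, 2 and 3 and grey lines joining the Tdt- and Tdt+ libraries of a number. The Tdt+ end of every line is above the Tdt- end for Spp1 through C4b and below it for P2ry12, Cd164, Ptgs1 and Cst3, and Ccl12 is the gene among them that passed the adjusted threshold.

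Other genes with no overlap between the groups and the smallest p-values, named by a fixed rule, did not pass either. Apoe, the lipid carrier, was the most abundant transcript of each Tdt+ library, at 59288, 44533 and 57351 TPM in replicates 1 to 3. In Tdt- libraries it was at 21137, 26950 and 35475 TPM and in contralateral ones at 15304 to 19091 TPM. The difference was log2 0.97 ± 0.15 (limma adjusted p = 0.196), from 0.69 to 1.49 in single pairs. Over the 21 alternative fits it ranged from 0.52 to 1.16. Cd72, a C-type lectin receptor that carries an inhibitory motif, was at 142, 175 and 106 TPM in Tdt+ and 58.3, 97.9 and 34.3 TPM in Tdt- libraries (log2 1.23 ± 0.19). Complement C4b was at 45.6, 53.8 and 48.2 TPM against 18.4, 12.3 and 9.13 TPM (log2 1.86 ± 0.29). The 3 Tdt+ libraries were close together in C4b, and the near-identical copy C4a makes its level uncertain. Gpx3, a secreted glutathione peroxidase, was at 155, 138 and 164 TPM against 42.3, 80.2 and 74.4 TPM. Tspo, the outer mitochondrial membrane protein used in imaging of reactive microglia, was at 262, 306 and 272 TPM against 138, 207 and 153 TPM. Vps16, a subunit of complexes that tether endosomes and lysosomes, was at 237, 304 and 287 TPM in Tdt+ and 143, 187 and 175 TPM in Tdt- libraries. It was not lower in contralateral libraries, at 192 to 309 TPM, which sets it apart in level from Gpx3 and Tspo, whose contralateral ranges were 37.1 to 53.8 and 114 to 126 TPM. Insl3, an insulin-like peptide hormone, was at 8.18, 11.7 and 13.99 TPM in Tdt+ libraries and listed at 0 in all Tdt- libraries and in contralateral replicates 1 and 2, and contralateral replicate 3 held 9.55 TPM. Insl3 met the filter through the Tdt+ libraries alone, so its small p and lack of overlap are no independent support for a difference.

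Towards Tdt-, no gene passed with all 6 libraries and 1 did without pair 3 (Gm23632), and 455 had a negative difference with an unadjusted p under 0.05. P2ry12, the purine receptor through which resting microglia sense ATP and ADP, was at 4776, 3657 and 3938 TPM in Tdt+ replicates 1 to 3 and 8492, 5349 and 5190 TPM in Tdt- ones. Contralateral libraries held 9942, 7363 and 6379 TPM. Within each number the order was thus contralateral, Tdt- and Tdt+, and the difference was log2 -0.59 ± 0.09 (limma adjusted p = 0.199, and 0.828 without the block). Leaving out a pair or a library moved this difference between -0.72 and -0.36. Cd164, a sialomucin of adhesion, was at 327, 379 and 368 TPM against 519, 546 and 509 TPM in Tdt- libraries (log2 -0.55 ± 0.11). Ptgs1, the cyclooxygenase that microglia express at rest, was at 615, 641 and 662 TPM against 853, 875 and 916 TPM, and differed by nearly the same amount in each pair (log2 -0.46 ± 0.09). Abhd6, which breaks down the endocannabinoid 2-AG, was at 40.1, 34.5 and 37.1 TPM against 67.9, 78.3 and 74.8 TPM. Cst3, the secreted protease inhibitor cystatin C, was at 23308, 26829 and 24083 TPM against 33955, 34146 and 27532 TPM, where Tdt- replicate 3 came closest to the Tdt+ libraries. Siglech, a sialic acid-binding lectin of microglia, was at 869, 714 and 724 TPM against 1300, 930 and 890 TPM.

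The rest of these genes were lower in level. Slmap, a membrane-associated protein of the STRIPAK complex, was at 46.2, 23.5 and 25.0 TPM in Tdt+ and 88.3, 57.6 and 57.3 TPM in Tdt- libraries. Grap, a Grb2-related adaptor, was at 53.1, 47.7 and 42.5 TPM against 93.1, 79.6 and 70.9 TPM. Both genes had their highest library numbered 1 in each group. Magef1 was at 42.7 to 46.3 TPM against 73.9 to 90.9 TPM, and Ubn1, a histone H3.3 chaperone subunit, at 11.0 to 21.2 TPM against 29.6 to 42.5 TPM. Cdhr4, a cadherin-related gene, was at 0.47, 0 and 0 TPM in Tdt+ and 21.6, 28.6 and 4.53 TPM in Tdt- libraries. Contralateral libraries held 2.66, 3.01 and 0 TPM of Cdhr4, so the Tdt- libraries were above both other groups. Cdhr4 met the filter through the Tdt- libraries alone, so its small p and lack of overlap are no independent support for a difference. Ly6g6d, a small surface protein gene of the major histocompatibility region, was at 3.63, 0 and 0 TPM against 12.2, 12.4 and 8.80 TPM.

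**Figure D3:**
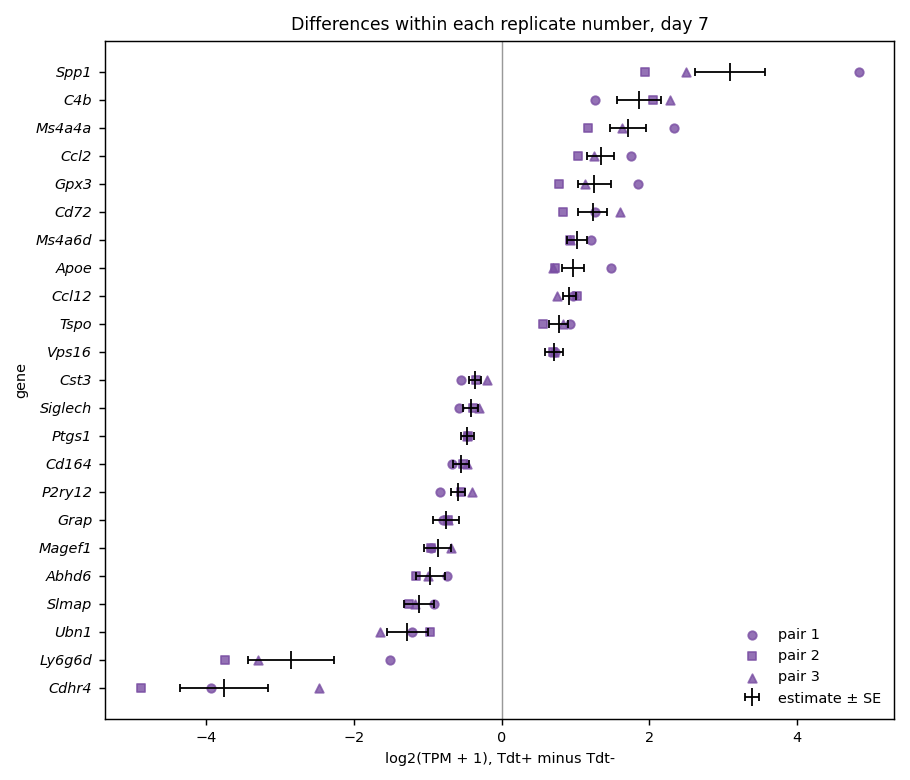
Difference in log2(TPM + 1) between the Tdt+ and Tdt- libraries of each replicate number (purple markers) and the limma estimate with its SE (black) for the genes named by smallest p with no overlap between groups, leaving out genes listed at 0 in a whole group. The 3 pairs lie close together for Ccl12, Vps16, Ptgs1 and Grap and are spread wide for Spp1, Cdhr4 and Ly6g6d.

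Gene lists were described by counts and medians. The homeostatic list went one way in count: of 30 genes tested, none passed the adjusted threshold, 15 had an unadjusted p under 0.05 with a negative difference (50.0%, against 3.83% of all genes) and none with a positive one (3.05% of all genes). For 11 of them all Tdt+ libraries lay below all Tdt- libraries (36.7%, against 7.34% of all genes), and the list median was log2 -0.29 against -0.06 over all genes. The mean log2(TPM + 1) over the list was 8.98, 8.995 and 8.96 in Tdt+ replicates 1 to 3, 9.38, 9.24 and 9.14 in Tdt- ones and 9.39, 9.34 and 9.22 in contralateral ones. Without replicate 3 the count was 13 of 30, and under median-ratio scaling 10 of 30. Besides P2ry12, Cd164, Cst3 and Siglech, Tmem119 was at 1449, 2105 and 1890 TPM in Tdt+ and 2456, 2270 and 2222 TPM in Tdt- libraries (log2 -0.37 ± 0.13, limma adjusted p = 0.668). The groups did not overlap there. Slc2a5, a fructose transporter named after its values were seen, had the largest negative difference of the list, at 212, 159 and 130 TPM in Tdt+ and 391, 306 and 159 TPM in Tdt- libraries (log2 -0.70 ± 0.16). The fractalkine receptor Cx3cr1 was at 1505, 1331 and 1262 TPM against 1654, 1423 and 1662 TPM, with overlap. Ctss, a cathepsin abundant in microglia, was at 11283, 13071 and 13279 TPM against 12005, 11893 and 12354 TPM.

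The disease-associated list was split. None of its 32 genes passed, 10 had an unadjusted p under 0.05 with a positive difference (31.2%, against 3.05% of all genes) and none with a negative one. For 5 of them all Tdt+ libraries lay above all Tdt- libraries (15.6%, against 4.11% of all genes), and the median was log2 0.19. The count was 7 without replicate 3 and 5 without the block. The 10 were Spp1, Apoe, Lgals1, Lilrb4a, Ch25h, Lyz2, Cd52, Cd63, Fth1 and Ctsl. Spp1 drives the label, so its place among them and in the list means is tied to the sort. Ch25h was at 0 in all Tdt- libraries and met the filter through the Tdt+ libraries alone. Other core genes of the programme, given after their values were seen, overlapped between the groups. Trem2, the lipid-sensing receptor on which the programme depends in mouse disease models, was at 1152, 1151 and 1177 TPM in Tdt+ and 1415, 1299 and 1173 TPM in Tdt- libraries (log2 -0.16 ± 0.10, limma adjusted p = 0.774). Clec7a, a beta-glucan receptor, was at 40.0, 16.1 and 19.4 TPM against 38.1, 17.8 and 24.0 TPM. In that gene the replicate number went with the level more than the label did. Cst7, a cystatin, was at 42.2, 63.1 and 36.5 TPM against 25.3, 69.6 and 38.4 TPM, and Lpl, lipoprotein lipase, at 33.9, 13.6 and 16.3 TPM against 23.6, 24.8 and 23.4 TPM. Lyz2, lysozyme, was at 1007, 393 and 524 TPM against 462, 340 and 376 TPM. Cd68, a lysosomal membrane protein of phagocytes, was at 977, 668 and 529 TPM against 1022, 722 and 814 TPM. The mean log2(TPM + 1) over the list was 7.76, 7.201 and 7.15 in Tdt+ replicates 1 to 3 and 6.71, 7.16 and 6.99 in Tdt- ones, so the widest gap was in pair 1.

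Genes of the phagocytic microglia of the early postnatal brain overlap with that list in part. Of 23 tested, none passed, and 9 had an unadjusted p under 0.05 with a positive difference (39.1%, against 3.05% of all genes). With a negative difference there was 1 (4.35%, against 3.83% of all genes), and the median was log2 0.36. Spp1, which drives the label, is among the 9 and in the list means, and its place there is tied to the sort. The mean log2(TPM + 1) over the list was 6.77, 5.88 and 5.94 in Tdt+ replicates 1 to 3 and 5.31, 6.21 and 5.82 in Tdt- ones, so pair 2 went the other way and the widest gap was in pair 1. Without replicate 3 those counts were 6 and 0. The 1 negative gene was Pf4, a platelet chemokine also made by border-associated macrophages, at 10.3, 0 and 2.36 TPM in Tdt+ and 11.0, 42.5 and 50.1 TPM in Tdt- libraries. Pair 1 was nearly equal in Pf4, and the difference came from pairs 2 and 3. Gpnmb, an injury-induced glycoprotein given after its values were seen, was at 52.3, 2.62 and 0.96 TPM in Tdt+ and 9.42, 2.34 and 0.37 TPM in Tdt- libraries. Most of that level was in the libraries numbered 1 on both sides.

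**Figure D4:**
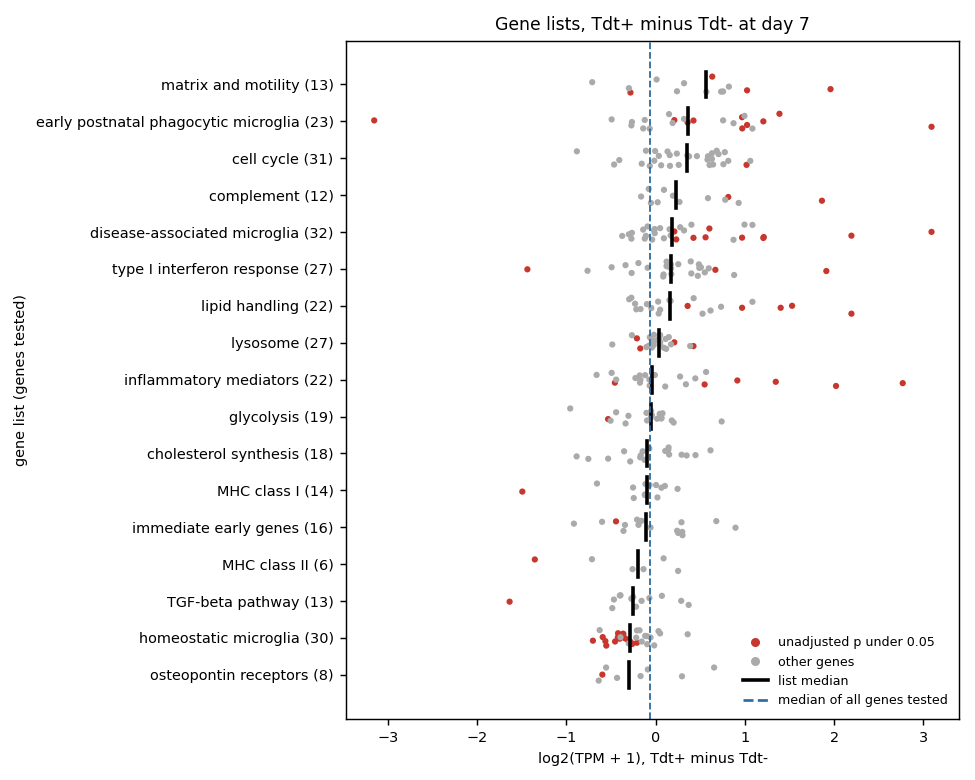
Difference in log2(TPM + 1), Tdt+ minus Tdt-, of each tested gene in 17 pathway lists, with list medians as black bars, the median of all genes tested as a dashed line, and genes with an unadjusted p under 0.05 in red. Red points lie to the left in the homeostatic list and mostly to the right in the disease-associated, early postnatal phagocytic and lipid lists.

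Lipid handling genes include Apoe. Of 22 tested, 5 had an unadjusted p under 0.05 with a positive difference (22.7%, against 3.05% of all genes) and none with a negative one, and none passed. Ch25h, among the 5, was at 0 in all Tdt- libraries and met the filter through the Tdt+ libraries alone. The median was log2 0.16, and it was 0.27 without pair 3 and 0.44 without Tdt- replicate 3 and the block. Apoc1, an apolipoprotein next to Apoe on the chromosome, was at 61.7, 132 and 84.6 TPM in Tdt+ and 10.1, 62.5 and 54.0 TPM in Tdt- libraries (log2 1.40 ± 0.35, limma adjusted p = 0.617). Leaving out a pair or a library moved the Apoc1 difference between 0.595 and 1.86. Scd2, a fatty acid desaturase, was at 10.3, 21.0 and 11.8 TPM against 11.1, 21.5 and 20.5 TPM. None of 18 cholesterol synthesis genes had an unadjusted p under 0.05, and their median of log2 -0.10 became 0.08 without replicate 3. Dhcr7, the last enzyme of the main route, was at 12.5, 16.3 and 7.51 TPM against 10.8, 30.1 and 24.9 TPM. Insig1, a sterol sensor of that pathway, was at 17.6, 35.7 and 24.6 TPM against 16.8, 21.9 and 19.8 TPM.

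Osteopontin receptors gave no call. Of 8 genes tested, none passed and 1 had an unadjusted p under 0.05 with a negative difference (12.5%, against 3.83% of all genes). The median was log2 -0.30, and -0.14 without pair 3. That gene was Itgav, the alpha-v integrin subunit, at 63.9, 78.7 and 71.6 TPM in Tdt+ and 114, 118 and 93.2 TPM in Tdt- libraries (log2 -0.60 ± 0.17, limma adjusted p = 0.644), with no overlap. Cd44 was at 9.30, 14.46 and 6.81 TPM against 4.31, 6.59 and 6.90 TPM, and Itga9 at 9.59, 4.39 and 5.54 TPM against 12.4, 5.14 and 16.1 TPM. In both of these the groups overlapped.

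Matrix and motility genes had the highest median of the pathway lists, log2 0.57 over 13 genes tested, and none passed. Fn1, fibronectin, was at 17.3, 61.4 and 51.8 TPM in Tdt+ and 3.93, 18.4 and 9.71 TPM in Tdt- libraries, and at most 1.13 TPM in contralateral ones (log2 1.96 ± 0.29, limma adjusted p = 0.196). Tdt+ replicate 1 lay just below Tdt- replicate 2, so the groups overlapped although each pair differed in the same direction. Anxa2, an annexin at the cell membrane, was at 50.5, 70.9 and 69.0 TPM against 20.2, 42.3 and 32.5 TPM, with no overlap. Sparc, a matrix-binding glycoprotein of homeostatic microglia, was at 1106, 1228 and 995 TPM against 1529, 1385 and 1148 TPM.

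Fn1 is also a monocyte marker, and the sum over that list was higher in each Tdt+ library than in the Tdt- library of its number. The summed level of the 12 monocyte markers was 81.6, 175 and 157 TPM in Tdt+ replicates 1 to 3, 54.5, 107 and 93.3 TPM in Tdt- ones and 33.4 to 49.1 TPM in contralateral ones. Of the 5 that were tested, 3 had an unadjusted p under 0.05 with a positive difference (60%, against 3.05% of all genes): Fn1, F13a1 and Ms4a4c. F13a1, coagulation factor XIII subunit A, was at 22.4, 64.6 and 46.6 TPM in Tdt+ and 12.6, 37.3 and 40.7 TPM in Tdt- libraries. Ccr2, the defining receptor of classical monocytes, was at 1.79 to 5.23 TPM in Tdt+ and 1.83 to 2.88 TPM in Tdt- libraries, and Plac8 was at 0 in the 3 Tdt+ libraries. Border-associated macrophage markers summed to 899, 608 and 714 TPM in Tdt+ and 557, 614 and 755 TPM in Tdt- libraries, with 7 to 9 of 12 above 0 in each. Of 8 tested, 7 had a positive difference, where 43.0% of all genes did, with a median of log2 0.49. With an unadjusted p under 0.05, 2 of the 8 were positive, F13a1 and Ms4a7 (25%, against 3.05% of all genes). Pf4 was negative with such a p (12.5%, against 3.83% of all genes). Cbr2, a carbonyl reductase, was at 46.5, 40.3 and 11.4 TPM in Tdt+ and 18.3, 13.9 and 15.4 TPM in Tdt- libraries, and Ms4a7 was at 47.0, 3.78 and 1.78 against 6.99, 3.46 and 0 TPM. Mrc1, a mannose receptor of the same list, was at 253, 72.8 and 55.1 TPM against 159, 77.7 and 60.0 TPM, and Lyve1 was at 0 in the 3 Tdt+ libraries and at up to 9.67 TPM in Tdt- ones. Whether monocytes or border-associated macrophages have a part in the differences above was not tested.

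Complement, interferon and antigen presentation genes gave no call. Of 12 complement genes tested, 2 had a positive difference with an unadjusted p under 0.05 (16.7%, against 3.05% of all genes), C4b and C1qc, and without pair 3 the count was 3. C1qc was at 1513, 1829 and 1535 TPM in Tdt+ and 640, 988 and 1233 TPM in Tdt- libraries (log2 0.81 ± 0.16, limma adjusted p = 0.456). C1qb, another chain of the same C1q molecule, was at 9017, 11870 and 12652 TPM against 10174, 12192 and 12815 TPM, so the chains differed in pattern. Of 27 type I interferon genes, 2 had a positive and 1 a negative difference with an unadjusted p under 0.05 (7.41% and 3.70%, against 3.05% and 3.83% of all genes), with a median of log2 0.17. Without pair 3 the counts were 4 and 0 and the median 0.46, and without Tdt- replicate 3 and the block they were 1 and 2 and the median 0.02. Ifitm3, which blocks virus entry, was at 104, 179 and 67.6 TPM against 69.4, 84.7 and 52.8 TPM. Ifit3 was at 66.3, 45.3 and 4.95 TPM against 53.3, 40.0 and 39.7 TPM, and its negative difference rests on pair 3. Cd74, the invariant chain of MHC class II, was at 6.65, 13.4 and 6.98 TPM in Tdt+ and 20.3, 23.6 and 26.9 TPM in Tdt- libraries (log2 -1.35 ± 0.35, limma adjusted p = 0.630). It was the 1 gene of 6 on its list with an unadjusted p under 0.05 (16.7%, against 3.83% of all genes with a negative difference). The class I heavy chain H2-D1 was at 543 to 614 TPM against 480 to 581 TPM, with overlap.

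Among 22 inflammatory mediators, Ccl12 passed, 5 including it had a positive difference with an unadjusted p under 0.05 and 1, the NF-kB subunit Nfkb1, a negative one. These were 22.7% and 4.55%, against 3.05% and 3.83% of all genes. Nfkb1 was at 70.3, 78.3 and 57.4 TPM in Tdt+ and 124, 97.8 and 68.1 TPM in Tdt- libraries. Cd14, the co-receptor for LPS, was at 443, 598 and 559 TPM against 546, 616 and 633 TPM. The list median was log2 -0.04, and it turned positive without replicate 3 (0.11) and under quantile normalization (0.03) or median-ratio scaling (0.03).

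Cell cycle genes had a median of log2 0.35 over 31 tested, 23 of them positive, but only Rrm1 had an unadjusted p under 0.05 (3.23%, against 3.05% of all genes). Without Tdt- replicate 3 and the block the median was 0.15, with 18 genes positive and none with an unadjusted p under 0.05. Rrm1, a ribonucleotide reductase subunit, was at 18.9, 27.0 and 32.9 TPM in Tdt+ and 9.40, 21.7 and 8.61 TPM in Tdt- libraries. The mean log2(TPM + 1) over the list was 4.11, 3.34 and 3.1 in Tdt+ replicates 1 to 3, 3.66, 3.03 and 2.93 in Tdt- ones and 3.81, 2.49 and 2.26 in contralateral ones. The number of the replicate thus went with a wider range than the label did. Of 27 lysosomal genes, 2 had a positive and 2 a negative difference with an unadjusted p under 0.05 (7.41% each, against 3.05% and 3.83% of all genes). Without pair 3 the counts were 1 and 1 and the median moved from log2 0.04 to 0.11. Cd63, a tetraspanin of late endosomes, was at 787, 961 and 1024 TPM against 501, 768 and 832 TPM. The TGF-beta, glycolysis, immediate early and MHC class I lists each had 1 gene with an unadjusted p under 0.05, with a negative difference, and none passed. That is 7.69%, 5.26%, 6.25% and 7.14% of their genes, against 3.83% of all genes. A single gene with such a p in lists of this size gives no direction. By overlap, 4 of the 13 TGF-beta genes had all Tdt+ libraries below all Tdt- libraries (30.8%, against 7.34% of all genes) and 0 had them above, and 10 had a negative difference. The glycolysis, immediate early and MHC class I lists had at most 1 gene without overlap in either direction. Without pair 3 the TGF-beta and immediate early lists had 1 gene in each direction and the MHC class I list had none, and the TGF-beta median moved from log2 -0.25 to -0.02. The small medians of 4 lists turned from negative to positive without pair 3, from log2 -0.04 to 0.11 for inflammatory mediators, -0.10 to 0.08 for cholesterol synthesis, -0.05 to 0.01 for glycolysis and -0.11 to 0.01 for immediate early genes. Of these, Pfkl, a phosphofructokinase of glycolysis, was at 40.9, 44.9 and 66.3 TPM in Tdt+ and 67.4, 59.8 and 92.9 TPM in Tdt- libraries. Btg2, an anti-proliferative early gene, was at 74.3, 114 and 80.8 TPM against 122, 140 and 103 TPM.

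The same sort was made at day 28 after injury, in mice without LPS and in mice given LPS, with 4 libraries per group in tables of their own. LPS is a bacterial cell wall component used as an immune challenge. The day 28 and LPS mice were older than the day 7 mice, which were at postnatal day 13. Age thus differs between day 7 and the other tables along with time since injury. Differences between the tables were not tested, and the estimates are side by side. For Spp1 the Tdt+ minus Tdt- difference was log2 3.09 ± 0.47 at day 7, 0.70 ± 0.49 at day 28 and 0.50 ± 0.11 after LPS. At day 28 the level was 1.3 to 31.7 TPM in Tdt+ and 0.82 to 6.68 TPM in Tdt- libraries. For Apoe the differences were 0.97 ± 0.15, 0.80 ± 0.12 and 0.37 ± 0.11, and at day 28 all 4 Tdt+ libraries lay above all 4 Tdt- ones. For P2ry12 they were -0.59 ± 0.09, -0.05 ± 0.04 and -0.49 ± 0.11. Ms4a4a was listed at 0 in all 8 day 28 libraries, and after LPS it was at 62.9 to 161 TPM in Tdt+ and 21.5 to 85.2 TPM in Tdt- libraries. Ccl12 differed by 0.92 ± 0.09 at day 7 and by 0.18 ± 0.14 and 0.22 ± 0.07 in the other tables. Ccl2 differed by 1.35 ± 0.18 at day 7, -1.25 ± 0.44 at day 28 and 0.415 ± 0.113 after LPS. Most genes set side by side were chosen by their small p at day 7, a choice that favours large day 7 estimates.

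**Figure D5:**
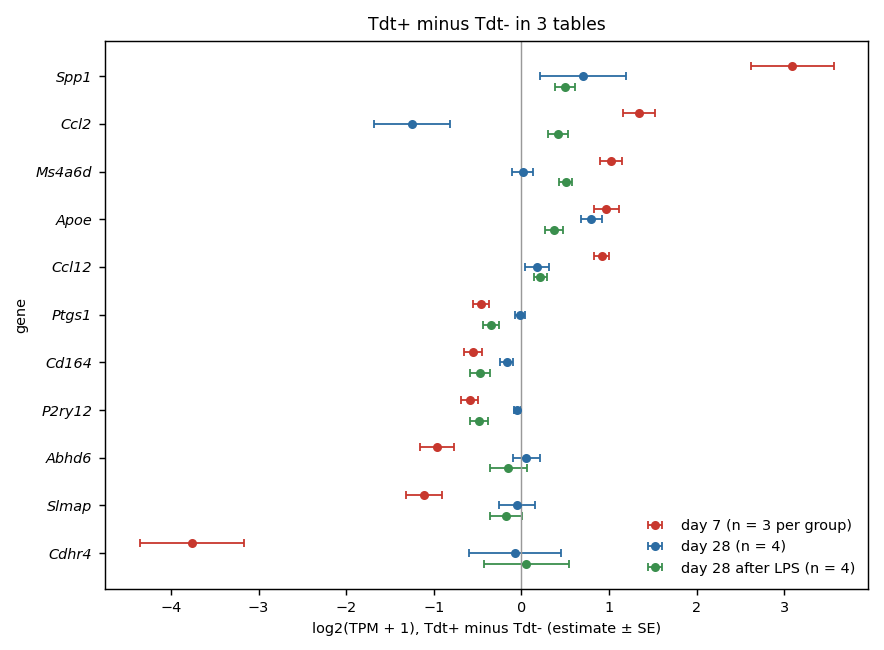
Tdt+ minus Tdt- difference in log2(TPM + 1) with its SE for 11 genes at day 7 (red, n = 3 per group), day 28 (blue, n = 4) and day 28 in mice given LPS (green, n = 4), each from its own table. All days are counted from the injury, also in the label of the green points. The day 7 difference lies farthest from 0 in all 11 genes, most of which were chosen by their small p at day 7. Apoe and Ccl12 are among the genes to the right of 0 in all 3 tables, and Ccl2 lies to the left of 0 at day 28.

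A separate time course of Tdt+ libraries includes 5 at day 7 from the injured cortex, with the same labels as the Tdt+ libraries described here, in a table normalized on its own. Spp1 was at 0 to 2.05 TPM in those 5, with a median of 0.40, against 534 to 922 TPM in the 3 Tdt+ libraries here. Ms4a4a was at 0 to 3.32 TPM there against 91.9 to 172 TPM here, and Ccl12 at 258 to 706 TPM against 2269 to 2963 TPM. Cdhr4 was at 10.0 to 23.9 TPM there, within the range of the day 7 Tdt- libraries and above the 0 to 0.47 TPM of the Tdt+ ones. Apoe was at 12510 to 32030 TPM there against 44533 to 59288 TPM here, and P2ry12 at 5239 to 7033 TPM against 3657 to 4776 TPM. Slmap, Cd164 and Abhd6 overlapped between the sets. Spp1 RNA in day 7 Tdt+ microglia was thus high in the 3 libraries here and near 0 in those 5. Levels in separate tables were not tested against each other, and the cause of the difference was not tested.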

How the data were processed

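The deposited tables hold TPM for 55413 gene symbols, made by the authors. Per the submitters' processing notes, cutadapt 2.10, STAR 2.7.5c, RSEM 1.3.3 and the build GRCm38 were used, and their order and settings are not given in the sources used here. Columns were matched to samples by name, and 7 columns of the tables, 3 of them in the day 7 table, matched no listed sample and were not used. The contralateral libraries were read from Tdt- columns of that side.

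For the 6 libraries, log2(TPM + 1) was fitted in R 4.3.3 by limma 3.58.1, with the replicate number as a block and a variance prior that follows intensity, for genes at 1 TPM or more in at least 3 libraries, with a threshold of 0.05 for p adjusted by Benjamini and Hochberg. The fit was tested on simulated data. The p-values measure only the spread between these samples, which may be technical. The members, gene lists and tests were chosen with earlier results of these data known. Named were Spp1, all genes that passed, up to 12 genes in each direction by smallest p with no overlap and at least 10 TPM in the higher group (predicted, mitochondrial, ribosomal and receptor genes left out), up to 2 per direction from each list, and Apoe, P2ry12, Tmem119 and Cx3cr1. Some genes that met this rule are left out of the text. Gene positions and promoters are from RefSeq on GRCm38.p6, where 11032 of the 11874 symbols matched.

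The block follows the definition of the comparison. The labels do not say that equal numbers share an animal. Deviations from the group means correlated at 0.0442 to 0.117 between libraries of the same number and at -0.0769 to 0.0263 between others, so a minimum of 0.1 for every pair was not met.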

Additional observations from a re-analysis of the deposited data

Results flagged for a closer look

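In the tables set beside day 7, single libraries stood far from the other 3 of their group, and chance flags about 1 in 20 groups. After LPS, Spp1 was at 665 TPM in Tdt+ replicate 4 (others 118 to 192) and at 373 TPM in Tdt- replicate 4 (others 98.3 to 145), so both libraries numbered 4 were high. At day 28, Apoe was at 2808 TPM in Tdt- replicate 1 (others 2215 to 2280) and Ccl2 at 44.95 TPM in the same library (others 16.9 to 19.3). Insl3 was at 3.76 TPM in day 28 Tdt+ replicate 2 and at 2.56 TPM in Tdt+ replicate 2 after LPS, with the others at 0. Groups of 3, as at day 7, are too small for this check.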

How the results depend on the processing

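The comparison was refitted under 21 alternatives, 2 of them added after seeing the data (the contralateral libraries in the fit, without a block or without Tdt- replicate 3). Of 1715 gene values under alternatives for 82 named genes, 1667 kept their direction and side of the threshold. A further 36 lost the threshold, 12 changed sign and none gained it. Only the 3 genes that passed in the main fit could lose the threshold, so the count of values kept says little about the calls. Gm27624 passed in 15 of the 21 alternatives, Gm37401 in 9 and Ccl12 in 3. The count of 3 genes past the threshold became 2 with no replicate block (Gm27624 and Gm37401). It was 1 with the contralateral libraries in the fit, 1 with a pseudocount of 0.1, 1 with a pseudocount of 10, 1 without a filter on low values and 0 without the intensity trend, where 774 genes had an unadjusted p under 0.05. Leaving out a pair or a library gave 0 to 5 genes: 0 without replicate 1, 3 without replicate 2, of which Gm27624 was shared, and 1 without replicate 3, lower in Tdt+ and not shared, and 1 to 5 without the block, with Gm27624 called in each fit that left out 1 library without the block. The cause of these changes was not tested. The 817 genes with an unadjusted p under 0.05 became 539 with a minimum of 10 TPM, where fewer genes were tested. Among list members, the 1 gene past the threshold, Ccl12, became 0 without replicate 3, 0 with no replicate block and 0 under quantile normalization. The neutrophil sum of 377 TPM in Tdt- replicate 3 was 330.2 without the genes set aside as shared with monocytes or activated microglia. Csf3r was not set aside. It made up 130 TPM of that sum and was at 99.9 to 158 TPM over the 6 libraries. Without the block the Spp1 estimates of 0.70 at day 28 and 0.50 after LPS stayed and their SE were 0.73 and 0.56.

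Sign changes included genes with differences of -0.88 (Lss), -0.76 (Ifit3), 0.68 (Ier2) and -0.49 (Xaf1) in all 6 libraries. B2m was at 0 under quantile normalization. When a pair or a library was left out, Ifit3 ranged from -1.44 to 0.31 (-1.30 to 0.24 over pairs), Xaf1 from -1.06 to 0.032 (-0.83 to 0.032), Lss from -1.96 to 0.25 (0.11 without Tdt- replicate 3 and the block), C1qb from -0.18 to 0.070, H2-D1 from -0.026 to 0.13, H2-Ab1 from -0.050 to 0.74, Bmpr2 from -0.035 to 0.16 (-0.020 to 0.14 over pairs) and Ier2 from -0.15 to 1.32. In all 6 libraries the best match by deviations was the library of the same number, a hint from the data and not from the design. TPM keeps no depth, so what depth limits is unknown here.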
